A study of Mus musculus with 39 samples.

Results

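The genes described here are the collagen chains and a small set of other stromal matrix genes in lymphomas of Eµ-myc mice. The members are every gene whose symbol is Col, a number, the letter a and a number, together with Dcn, Lum, Postn, Fn1, Sparc, Fbn1, Pdgfra and Pdgfrb. A gene table of the mouse assembly GRCm38.p6 holds 52 genes that meet this definition, and 49 of the 18194 genes measured were members, 42 collagen chains and 7 others. Col6a6, Col28a1 and Fbn1 were not analysed here. Each gene was read from the probe set that names it alone and has the highest mean, and no level was compared between probe sets.

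The tumours come from mice with a Myc transgene driven by the Eµ enhancer of the immunoglobulin heavy chain locus, which is active in B lineage cells, and the labels give no second allele, treatment, strain or age. RNA from 39 tumours was hybridised to short-oligonucleotide arrays, 1 array each, and all tumours form 1 group with no normal tissue beside it. Tumours are called here by the number in their label. Whether every tumour is from another mouse is not given, so a p-value here reflects the spread among these 39 pieces of tissue.

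Collagens are secreted proteins wound from chains that assemble into fibrils, sheets or beaded filaments, and each chain has a gene of its own. In lymphoid tissue they are made mainly by fibroblasts, reticular cells, pericytes and endothelium and little by B cells. Decorin (Dcn) and lumican (Lum) are small leucine-rich proteoglycans that bind fibrils, fibronectin (Fn1), osteonectin (Sparc) and periostin (Postn) are glycoproteins of the matrix, and Pdgfra and Pdgfrb are growth factor receptors of fibroblasts and pericytes. In these bulk samples, fewer cells of a type and less RNA per cell cannot be told apart.

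The promoter sequences of the members that followed Col1a1 most closely are shown first, because these genes moved together across tumours. Of the 49 members, 36 had a promoter entry in RefSeq for GRCm38.p6, in 40 windows. The letters GGGCGG, known as a site of Sp factors, CCAAT, known as a site of nuclear factor Y, and TATAAA, known as a site of basal factors, were searched on both strands in the 250 bases upstream of the transcript start, and matches are in capitals below. No motif searched contains another, and GGGCGG on the other strand reads CCGCCC. The 4 windows belong to the members with a single entry and the highest correlation with Col1a1, and each is printed 5′ to 3′ on the strand of its gene. They lie at chr2:27886175-27886424 on the plus strand for Col5a1, chr1:45311288-45311537 on the plus strand for Col3a1, chr6:4505368-4505617 on the plus strand for Col1a2 and chr11:55420081-55420330 on the minus strand for Sparc.
Col5a1: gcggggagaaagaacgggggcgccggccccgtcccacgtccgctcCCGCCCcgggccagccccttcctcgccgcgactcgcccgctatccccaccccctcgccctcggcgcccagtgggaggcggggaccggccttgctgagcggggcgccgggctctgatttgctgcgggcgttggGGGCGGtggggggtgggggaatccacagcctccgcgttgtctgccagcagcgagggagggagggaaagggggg
Col3a1: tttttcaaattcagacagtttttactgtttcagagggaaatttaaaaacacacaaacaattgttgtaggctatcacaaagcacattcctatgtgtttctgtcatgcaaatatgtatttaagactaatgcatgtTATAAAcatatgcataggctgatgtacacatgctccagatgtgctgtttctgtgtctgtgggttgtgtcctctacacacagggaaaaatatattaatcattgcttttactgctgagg
Col1a2: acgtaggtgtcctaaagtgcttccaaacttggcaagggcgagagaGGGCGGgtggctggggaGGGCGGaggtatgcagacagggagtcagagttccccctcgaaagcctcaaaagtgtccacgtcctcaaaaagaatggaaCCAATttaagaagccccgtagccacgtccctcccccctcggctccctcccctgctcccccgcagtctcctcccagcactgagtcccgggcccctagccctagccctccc
Sparc: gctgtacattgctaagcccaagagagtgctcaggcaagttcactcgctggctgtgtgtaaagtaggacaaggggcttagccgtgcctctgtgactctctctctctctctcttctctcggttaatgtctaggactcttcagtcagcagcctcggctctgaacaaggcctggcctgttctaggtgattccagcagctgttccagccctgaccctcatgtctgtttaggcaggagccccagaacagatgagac

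The 4 genes whose transcripts ran together did not carry the same letters. Col5a1 held GGGCGG at 2 places, Col1a2 held GGGCGG at 2 places and CCAAT at 1, Col3a1 held TATAAA at 1 place, and none of the 3 motifs was found in these bases of Sparc. GGGCGG was present in 52.5% of the 40 member windows and 32.7% of the 32851 windows of all promoters, CCAAT in 32.5% of member windows and 33.9% of all, and TATAAA in 15% of member windows and 12.4% of all. The letters CAGAC, a short Smad-binding sequence searched on both strands and not shown in capitals, were in 45% of member windows and 42.2% of all. A match is a description of the letters in the window.

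One more sequence is shown because it belongs to a pair of members compared further on. Col4a1 and Col4a2, which encode the basement membrane chains that assemble with each other, lie head to head on chromosome 8, and their annotated starts overlap by 22 bases at chr8:11312805-11312826. Capitals mark the shared bases, read on the plus strand, which is the strand of Col4a2.
Col4a1 and Col4a2 shared start: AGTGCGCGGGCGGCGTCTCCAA

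Some arrays stood apart. The r of any 2 arrays over all probe sets was between 0.889 and 0.991, and tumours 2, 6 and 8 had the lowest mean r with the others. A score of 11 pan B cell genes was under -1 or the Myc level under 10 in 7 tumours (2, 5, 6, 8, 19, 23 and 26). Tumour 2, with a pan B cell score of 0.20, was counted for its Myc level alone, and the others had scores under -1. Hybridisation controls gave no separate cluster of arrays, and the labels give no batch.

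The levels of the matrix genes were spread widely over the tumours. The SD across tumours was at least 1 on the log2 scale in 6 of 49 matrix genes (12.2%) and in 1333 of all 18194 genes (7.33%), and the median SD was 0.44 in matrix genes and 0.32 in all genes. These shares are a description, with no test. An SD of at least 0.5 was found in 22 members (44.9%, against 27.7% of all genes), and the other 27 had SDs between 0.143 and 0.473. Without tumours 2, 6 and 8 the median SD of the matrix genes was 0.42, and without the 7 tumours low in B cell genes or Myc it was 0.36.

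**Figure D1:**
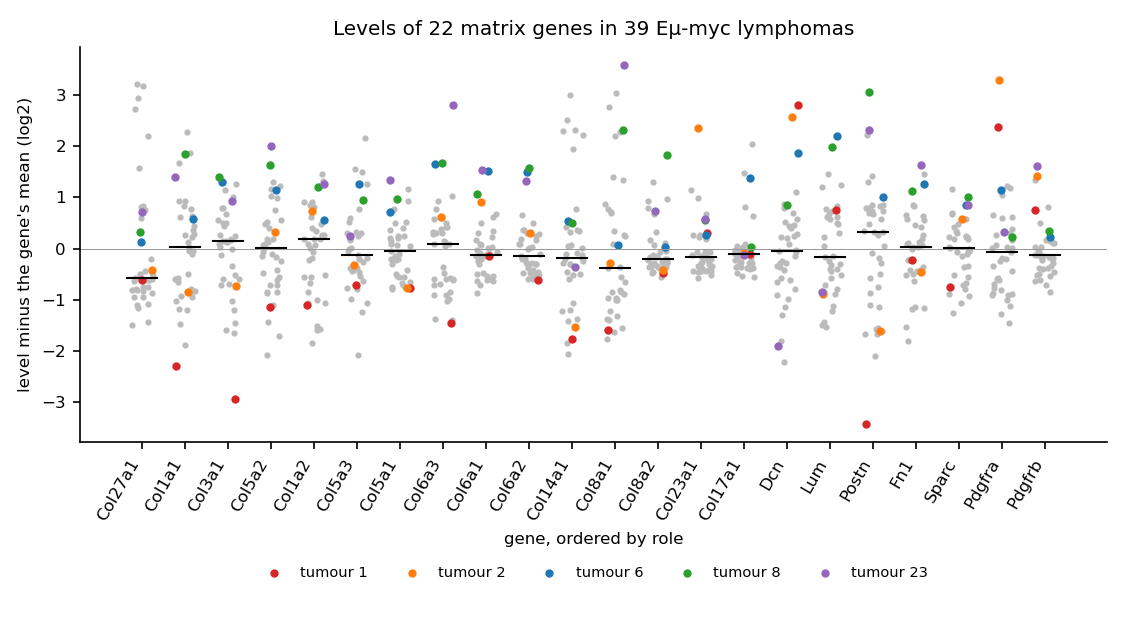
Level of each of the 22 matrix genes with an SD of at least 0.5, as the log2 difference from the mean of that gene (y axis), with 1 point per tumour, genes grouped by role (x axis), black bars at the medians and 5 tumours coloured. Tumour 1 lies lowest for Col1a1, Col3a1 and Postn and highest for Dcn, and the 6 upper points of Col27a1 are separate from the rest.

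The fibrillar collagens, which form the tensile fibres of connective tissue, had 7 of 11 chains at an SD of at least 0.5. Col1a1 (Entrez gene 12842, chromosome 11), a chain of type I collagen, had a lowest level of 6.49 in tumour 1, a median of 8.80 and a highest of 11.04 in tumour 4. Col1a2, its partner chain, ran between 9.54 in tumour 5 and 12.85 in tumour 4 with a median of 11.57, and Col3a1, the chain of type III collagen, between 8.70 in tumour 1 and 13.04 in tumour 8 with a median of 11.77. The same tumours recur at the ends of these ranges: tumour 4 was among the 3 highest for Col1a1, Col1a2, Col3a1, Col5a1 and Col5a2.

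Type V chains set fibril diameter, and Col5a1 ranged between 6.38 and 8.52 and Col5a2 between 6.78 and 10.87, both highest in tumour 23. Col5a3, a less common type V chain, was spread over 4.28 in tumour 18 to 8.54 in tumour 10, neither of which stood at an end for Col5a1 or Col5a2. The 2 probe sets of Col5a3 correlated with r = 0.25 only. Col27a1, a fibrillar chain of cartilage, had a median of 7.20, a lowest level of 6.28 and a highest of 10.98 in tumour 22. Its values split into separate clusters, with 6 tumours (5, 11, 13, 22, 29 and 31) at 9.34 to 10.98 and the other 33 at 6.28 to 8.60, and its 2 probe sets correlated with r = 0.986. Col11a1, a cartilage fibril chain, also split, with 7 tumours at 4.30 to 5.00 and the rest at 3.28 to 4.14.

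The network-forming and fibril-associated collagens held the most variable member. Col8a1, a short-chain collagen of vessel walls and cornea, had an SD of 1.45, with a lowest level of 4.50, a median of 5.89 and a highest of 9.85 in tumour 23. Col8a2, its relative, ran between 2.65 and 5.03, and the 7 tumours of its high cluster (4, 8, 16, 21, 23, 28 and 34) included the 6 highest for Col8a1. Col14a1, a fibril-associated collagen, had an SD of 1.25 and lay between 4.87 and 9.94. Its 3 highest tumours were 38, 37 and 13, none of them among the 3 highest for Col1a1, Col1a2, Col3a1, Col5a1 or Col5a2.

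Col6a1, Col6a2 and Col6a3 form the beaded filaments that link fibrils to cells, and tumours 6, 8 and 23 were the 3 highest for all 3 genes. Col6a3 had a lowest level of 6.83 in tumour 1, a median of 8.39 and a highest of 11.10 in tumour 23, Col6a1 ran between 7.12 and 9.52 and Col6a2 between 7.84 and 10.03. Tumours 6, 8 and 23 were also among the 7 tumours low in B cell genes or Myc, with pan B scores of -2.59, -2.23 and -2.56 against a median of 0.38 over all tumours. Their part in the collagen VI levels was not tested.

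Basement membrane collagens moved less. Col4a1 lay between 8.69 in tumour 5 and 10.64 in tumour 4 with an SD of 0.47, and Col4a2 between 7.58 in tumour 5 and 9.27 in tumour 4 with an SD of 0.42. The 4 other type IV chains, which are found in specialised membranes such as that of the kidney filter, had SDs between 0.170 and 0.247. Col15a1 and Col18a1, the multiplexins that sit beside vessel basement membranes, ran between 5.68 and 7.11 and between 5.81 and 7.33. The 2 transmembrane chains with wider ranges were each raised in few tumours. Col17a1, a chain of epithelial anchoring complexes, was at 4.59 to 5.82 in tumours 6, 19, 26 and 32 and at 3.21 to 4.41 in the others, and 3 of these 4 (6, 19 and 26) are among the 7 low in B cell genes or Myc. Col23a1 reached 6.45 in tumour 2, with the next tumour at 5.24 and a median of 3.95.

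Among the other matrix genes, Postn had the widest range of all members, 6.50 log2, between 4.98 in tumour 1 and 11.48 in tumour 8 with a median of 8.74. Fn1 ran between 7.33 and 10.78, highest in tumour 23, and Sparc between 9.22 and 11.64, highest in tumour 4. Dcn was ordered otherwise: its median was 10.30, its lowest levels 8.13 in tumour 11 and 8.44 in tumour 23, and its highest 13.14 in tumour 1, 12.92 in tumour 2 and 12.21 in tumour 6. Tumour 1 was thus lowest of all for Col1a1 and highest of all for Dcn. Lum ran between 6.12 and 9.87, highest in tumours 6 and 8.

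The PDGF receptors shared tumour 2 among their highest. Pdgfra lay between 6.13 in tumour 5 and 10.87 in tumour 2, with tumour 1 next at 9.97 and a median of 7.53. Pdgfrb lay between 7.49 and 9.95, highest in tumours 23 and 2. In 6 of the 32 members with several probe sets the probe sets disagreed (lowest r under 0.2). Sparc was among them, where 1 probe set followed the one used with r = 0.975 and another with r = -0.20, and the others were Col6a4, Col9a3, Col12a1, Col19a1 and Col26a1.

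The question of which matrix genes move with type I collagen was put to all genes in limma fits along the Col1a1 level, with slopes in log2 per SD of Col1a1 (1 SD is 1.06 log2) and Benjamini-Hochberg adjustment over 18193 genes. Of the 48 other matrix genes 16 rose with Col1a1 and 0 fell, while 32 did not pass. Over all genes 0.467% rose and 0.115% fell. At an unadjusted p under 0.05 the limma counts in the matrix genes were 21 higher and 1 lower. The median slope was 0.07 in the matrix genes and 0.01 in all genes.

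**Figure D2:**
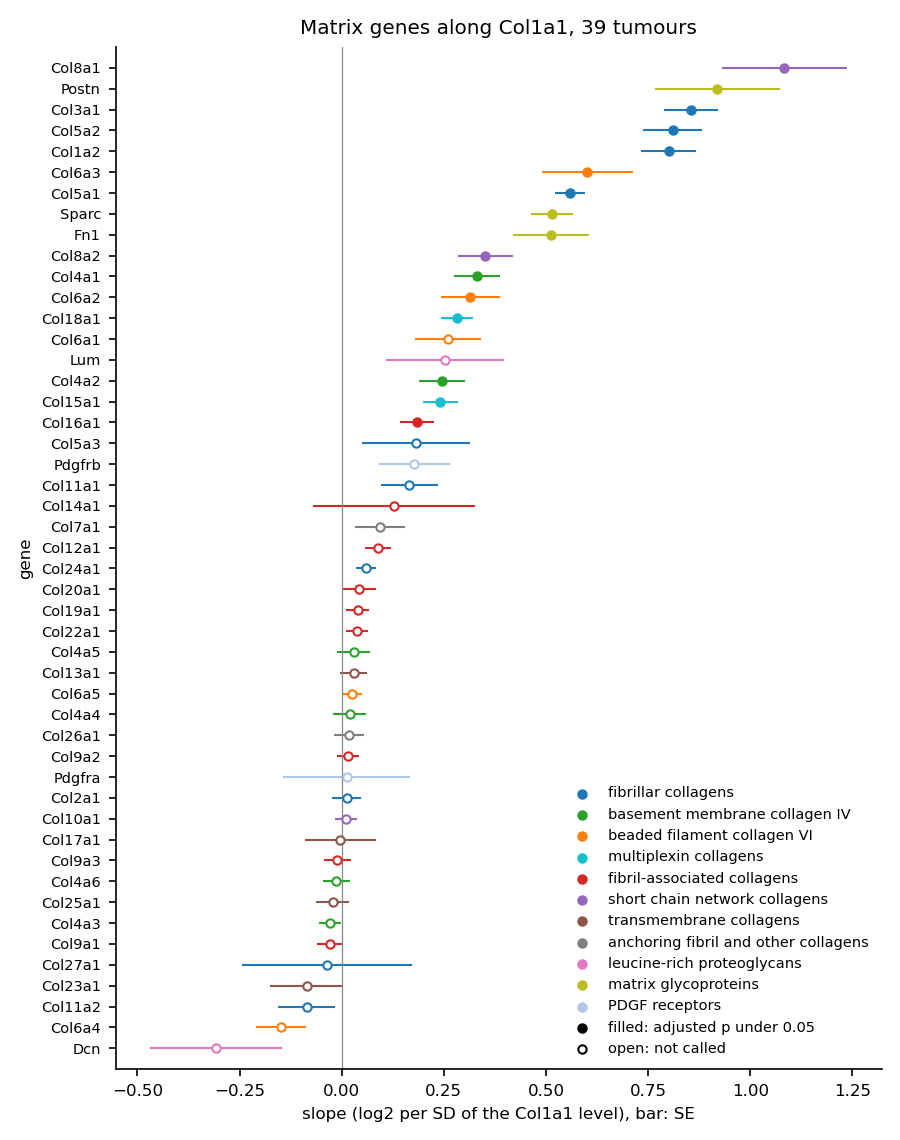
Slope of each of 48 matrix genes along the Col1a1 level (x axis, log2 per SD of Col1a1), with bars for the SE, colours for the role and filled points for an adjusted p under 0.05. The 16 filled points lie between 0.18 for Col16a1 and 1.08 for Col8a1, and Dcn has the lowest slope, -0.31, with an open point.

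Of 10 other fibrillar chains 4 rose. Col3a1 rose by 0.86 ± 0.07 (slope ± SE, 39 tumours, limma adjusted p = 9.64e-12), Col5a2 by 0.81 ± 0.07 (adjusted p = 4.35e-10), Col1a2 by 0.80 ± 0.07 (adjusted p = 6.11e-11) and Col5a1 by 0.56 ± 0.04 (adjusted p = 1.20e-13). The 6 other fibrillar chains did not pass: slopes were 0.18 for Col5a3, 0.17 for Col11a1 and -0.04 for Col27a1, with Col2a1, Col11a2 and Col24a1 between -0.09 and 0.06. The chains of types I, III and V are those that assemble into mixed fibrils in skin, tendon and vessel walls, whereas types II, XI and XXVII are best known from cartilage. The calls do not follow this division fully, since Col5a3 is a type V chain that did not pass and Col24a1 is in neither group. The Col5a3 slope is that of 1 of 2 probe sets that correlated weakly (r = 0.25).

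All 3 matrix glycoproteins rose. Postn, which is secreted by activated fibroblasts and binds collagen, rose by 0.92 ± 0.15 (adjusted p = 0.00037). Sparc, which helps procollagen leave the cell, rose by 0.51 ± 0.05 (adjusted p = 7.31e-09), and Fn1, the scaffold on which collagen fibrils are laid, by 0.51 ± 0.09 (adjusted p = 0.00132). Col8a1 had the steepest slope of all members, 1.08 ± 0.15 (adjusted p = 1.76e-05), and Col8a2 rose by 0.35 ± 0.07 (adjusted p = 0.00262).

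The rise reached into the basement membrane and the collagen VI filaments. Col4a1 rose by 0.33 ± 0.06, Col4a2 by 0.25 ± 0.06, Col18a1 by 0.28 ± 0.04 and Col15a1 by 0.24 ± 0.04. Col6a3 rose by 0.60 ± 0.11 and Col6a2 by 0.31 ± 0.07, and Col6a1 had a slope of 0.26 ± 0.08 that did not pass (adjusted p = 0.157). In the pair tests further on, adjusted over fewer tests, Col6a1 and Col1a1 passed (r = 0.461, permutation adjusted p = 0.0047). Col16a1, a fibril-associated collagen, rose by 0.18 ± 0.04 and was the only 1 of 9 in that group to pass with the probe sets used. Col12a1, of the same group, had a slope of 0.09 (limma adjusted p = 0.251). With the mean of all its probe sets, which disagreed, Col12a1 rose by 0.23 (limma adjusted p = 8.8e-05). The 4 transmembrane chains had slopes between -0.09 and 0.03.

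The proteoglycans and receptors did not pass along Col1a1. The slope was 0.25 ± 0.14 for Lum (limma adjusted p = 0.516), -0.31 ± 0.16 for Dcn (adjusted p = 0.471), 0.01 ± 0.16 for Pdgfra (adjusted p = 0.988) and 0.18 ± 0.09 for Pdgfrb (adjusted p = 0.428). With the endothelium, macrophage, adipocyte and salivary gland scores as covariates Dcn fell, with a slope of -0.46 (adjusted p = 0.00709), as did Col6a4, a chain of the collagen VI family, with -0.18 (adjusted p = 0.0226).

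Members rising with Col1a1 numbered 15 when tumours 2, 6 and 8 were left out and 13 when the 7 tumours low in B cell genes or Myc were left out. With each tumour left out in turn it ran between 14 and 16. Col4a2 was lost without tumour 4, 5 or 7 (adjusted p between 0.056 and 0.069), Col6a2 without tumour 4, 8 or 23 (0.052, 0.110 and 0.0647) and Col16a1 without tumour 8 (0.086).

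Genes that fold, crosslink and process collagen were described from lists of the pathway. Of 26 folding and crosslinking genes 6 rose with Col1a1 and 0 fell, where 16 were higher and 0 lower at an unadjusted p under 0.05. Lox and Loxl1, which crosslink collagen and elastin, rose by 0.86 ± 0.11 and 0.58 ± 0.08, Serpinh1, the collagen chaperone, by 0.57 ± 0.11, and P4ha2, a prolyl hydroxylase, by 0.44 ± 0.09. Of 20 other small proteoglycan and elastic fibre genes 5 rose and 0 fell, led by Mfap5, a microfibril protein, with 1.01 ± 0.13, and Fbln2, a fibulin, with 0.67 ± 0.08. Vcan, a large proteoglycan, rose by 0.38 ± 0.05 and Fbn2, a microfibril protein, by 0.23 ± 0.05.

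In 4 other pathway lists 11.8%, 5%, 6.25% and 14.3% of genes rose along Col1a1, in the order below. Over all genes 0.467% rose, and each share of a list rests on 1 or 2 genes. Of 17 proteases and inhibitors 2 rose, Timp1, a metalloproteinase inhibitor, by 0.78 ± 0.10 and Ctsk, a collagen-cleaving cathepsin, by 0.43 ± 0.09. Of 20 TGF-beta and PDGF signalling genes 1 rose, Ccn2, a TGF-beta response gene, by 0.64 ± 0.15. Of 16 collagen and fibronectin receptors 1 rose, Mrc2, which takes up collagen for breakdown, by 0.34 ± 0.06. Of 14 basement membrane partners 2 rose, Pxdn, which crosslinks type IV collagen, by 0.37 ± 0.06 and Lamb1, a laminin chain, by 0.30 ± 0.07. None of these 4 lists had a gene that fell, and at an unadjusted p under 0.05 the limma fit had 5, 4, 2 and 5 genes higher in these lists, in the order given, and 0 lower.

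Markers of single cell types were read from the same fit, where 0.467% of all genes rose along Col1a1 and 0.115% fell. At an unadjusted p under 0.05 in limma, 1362 of all 18193 genes were higher and 726 lower. Of 13 fibroblast markers that are not members 1 rose (Mfap5, also an elastic fibre gene), and 5 were higher at an unadjusted p under 0.05. Of 13 smooth muscle and pericyte markers, 15 endothelium markers, 9 adipocyte markers, 13 salivary gland markers, 10 skeletal muscle markers and 8 bone and cartilage markers 0 passed, with 2, 0, 1, 0, 5 and 1 higher at an unadjusted p under 0.05, in that order. Of 16 macrophage markers Timd4 fell by 0.66 on the log2 scale per SD and 0 rose, and of 8 T cell markers Cd2 fell by 0.86, with 6 lower at an unadjusted p under 0.05. No pan B cell marker of 11 and no G2/M marker of 12 passed (2 and 0 lower at an unadjusted p under 0.05). The covariate fit above held only the endothelium, macrophage, adipocyte and salivary gland scores. The part of the other cells in the Col1a1 slopes was not tested.

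Among genes in no list that passed, the largest positive slopes along Col1a1 were those of Cited1 (1.22 ± 0.28), C3ar1 (1.02 ± 0.23), Sfrp2 (0.92 ± 0.18), Cthrc1 (0.87 ± 0.09), Aplnr (0.86 ± 0.20) and Ccn3 (0.77 ± 0.14). Sfrp2 is a secreted Wnt modulator and Cthrc1 a secreted protein with a collagen repeat, and C3ar1 is a complement receptor of myeloid cells. Among the genes of no list that passed, the largest negative slopes were those of Fcmr (-1.52 ± 0.31), the IgM Fc receptor of B cells, H2-DMb2 (-1.17 ± 0.21) and H2-DMa (-0.76 ± 0.19), which load peptides on MHC class II, and P2ry10 (-1.08 ± 0.27), a lymphocyte receptor. All 10 passed at an adjusted p under 0.05.

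Pairs of genes whose products assemble or bind were compared directly, with Pearson's r, Spearman's rho and permutation tests of 100000 draws, adjusted over the 29 pairs computed of 30 planned. Pairs that hold Col1a1 use the same values as the fit above. For r, 23 of 29 pairs passed, and the smallest adjusted p that the draws can give was 1.9e-05.

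The highest r of the 29 pairs was that of the main type IV chains. Col4a1 and Col4a2, the neighbours with the shared start, had r = 0.939 and rho = 0.925 over 39 tumours (permutation adjusted p = 1.9e-05), and r = 0.922 without the 2 tumours farthest from the median. Col6a1 and Col6a2 had r = 0.912 and rho = 0.849 (adjusted p = 1.9e-05) with r = 0.860 without tumours 6 and 23. Col1a1 and Col1a2 had r = 0.888 and rho = 0.884, and Col1a1 exceeded that with Col5a1 (r = 0.934) and Col3a1 (r = 0.901), which belong to other collagen types.

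Other pairs of chains had lower values. Col4a3 and Col4a4 had r = 0.346 (permutation adjusted p = 0.038), and Col4a5 and Col4a6, neighbours on the X chromosome, had r = 0.211 (adjusted p = 0.223). Col8a1 and Col8a2 had r = 0.772 over all tumours, but Col8a2 splits into clusters, and within the 32 tumours of its low cluster r was 0.418 (permutation adjusted p = 0.0247) and rho 0.291 (adjusted p = 0.121). Without the 7 tumours low in B cell genes or Myc r was 0.367 in the low cluster and did not pass (adjusted p = 0.0701). Col15a1 and Col18a1 had r = 0.717 and rho = 0.812 (adjusted p = 1.9e-05). Col1a1 and Col6a1 had r = 0.461 (permutation adjusted p = 0.0047) and rho = 0.450 (adjusted p = 0.0069).

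Among the partners of type I collagen, Sparc had r = 0.855, Lox 0.776, Postn 0.692, Fn1 0.662 and Serpinh1 0.649 with Col1a1, each with a permutation adjusted p of 1.9e-05. Dcn, which binds type I fibrils, had r = -0.291 and rho = -0.218 with Col1a1 (adjusted p = 0.0835), and r = -0.175 without tumours 1 and 4. Without tumours 2, 6 and 8 it passed, with r = -0.382 (permutation adjusted p = 0.0265), and without the 7 tumours low in B cell genes or Myc it did not (r = -0.353, adjusted p = 0.062). Pdgfra had r = 0.013 (adjusted p = 0.940) and Tgfb1, the growth factor best known for inducing collagen, r = 0.166 (adjusted p = 0.333). Tgfb3, another ligand of that family, splits into clusters, and within the 32 tumours of its larger cluster it had r = 0.392 (permutation adjusted p = 0.0359) and rho = 0.393 (adjusted p = 0.034) with Col1a1, against r = 0.087 over all 39. Pdgfrb had r = 0.314 (adjusted p = 0.064) and rho = 0.383 (adjusted p = 0.0224), and r = 0.389 without tumours 2, 6 and 8 (adjusted p = 0.0262). Dcn and Lum had r = 0.566 (adjusted p = 0.00027), and r = 0.729 without tumours 1 and 2. Pdgfra and Pdgfrb had r = 0.571 (adjusted p = 0.00072) and r = 0.387 without tumours 1 and 2.

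**Figure D3:**
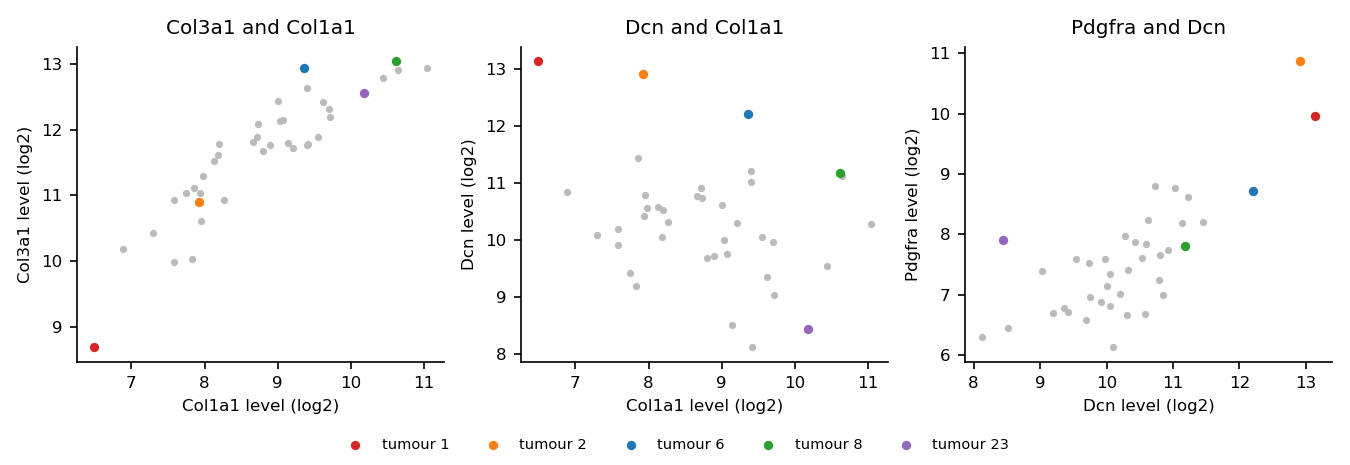
Levels (log2) of Col3a1 against Col1a1, Dcn against Col1a1 and Pdgfra against Dcn, with 1 point per tumour and 5 tumours coloured. Col3a1 and Col1a1 rise together with r = 0.901, Dcn against Col1a1 has r = -0.291 with tumours 1 and 2 at the upper left, and tumours 1 and 2 lie at the upper right of Pdgfra against Dcn.

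Over all pairs of the 22 variable members, r was computed as a description over the 39 tumours, which share the composition of each piece of tissue. Col1a1, Col1a2, Col3a1, Col5a1, Col5a2 and Sparc formed 1 block, with r between 0.82 and 0.96 in its 15 pairs. The 3 collagen VI chains had r between 0.85 and 0.91 with each other, and between 0.76 and 0.85 without the 7 tumours low in B cell genes or Myc. Dcn had r between -0.29 and 0.05 with the 6 genes of the block and Pdgfra between 0.0057 and 0.40. Without tumours 1 and 2 the r with these 6 was between -0.14 and 0.10 for Dcn and between 0.33 and 0.57 for Pdgfra. Dcn and Pdgfra had r = 0.769 with each other, 0.625 without tumours 1 and 2, which are the 2 highest for both, 0.694 without tumours 2, 6 and 8 and 0.804 without the 7. These alternatives were added after the values were seen. Another 3 members ran with few others: Col27a1 had r between -0.10 and 0.31 with the other 21, Col5a3 between -0.19 and 0.30 and Col14a1 between -0.18 and 0.43. For Col5a3, whose 2 probe sets correlated weakly, these values hold for the probe set used.

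**Figure D4:**
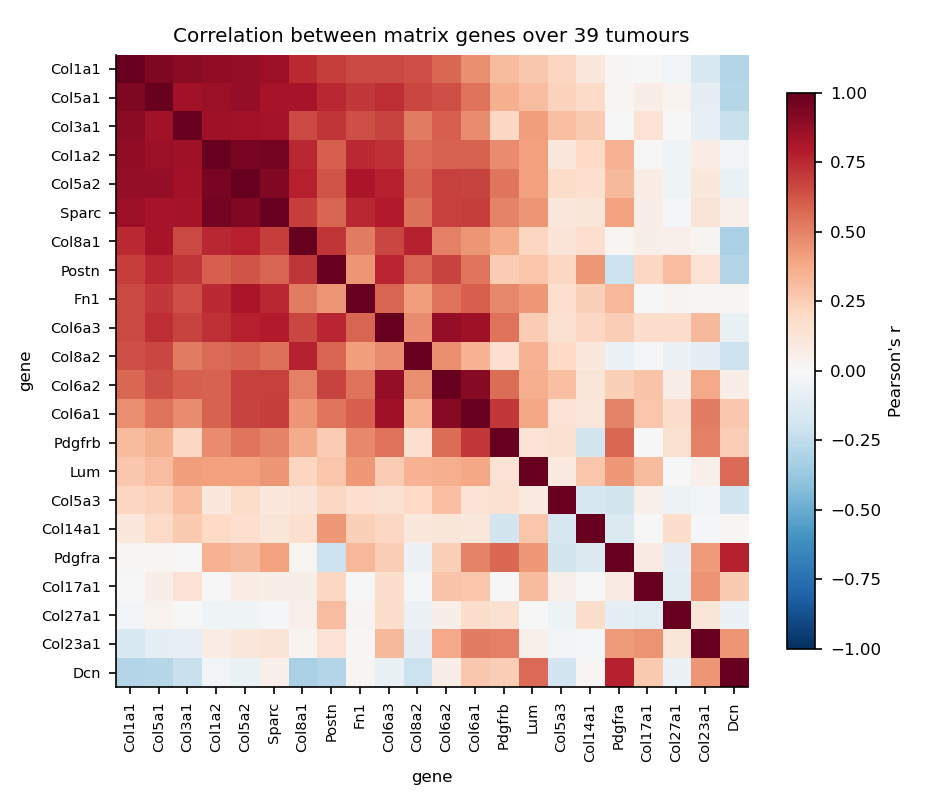
Pearson's r over 39 tumours between the 22 matrix genes with an SD of at least 0.5 (both axes list the genes in the order of their r with Col1a1), with red for positive and blue for negative values. The dark block at the upper left holds Col1a1, Col5a1, Col3a1, Col1a2, Col5a2 and Sparc, with r between 0.82 and 0.96, and Dcn at the lower right is dark with Pdgfra and Lum.

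Scores of other cells were set beside the matrix genes in 4 further limma fits, each along the mean of a marker list with no members in it. Along the endothelium score (15 markers, between -0.53 in tumour 23 and 0.90 in tumour 2) 5 of 49 matrix genes rose and 0 fell, where 2.93% of all genes rose and 1.02% fell (9 higher and 2 lower members at an unadjusted p under 0.05). Col4a2 rose by 0.29 ± 0.05 log2 per SD (adjusted p = 0.00062) and Col4a1 by 0.27 ± 0.06 (adjusted p = 0.0109). Pdgfra rose by 0.56 ± 0.13, Dcn by 0.52 ± 0.15 and Col6a4 by 0.23 ± 0.05. With the mean of all its probe sets, which disagreed, Col6a4 had a slope of 0.09 and did not pass (limma adjusted p = 0.104). The 4 other type IV chains did not pass.

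The type IV pair was the part of this result that did not rest on tumour 2. Without tumours 2, 6 and 8, Col4a1 (0.29, adjusted p = 0.0262) and Col4a2 (0.28, adjusted p = 0.0056) were the 2 members that rose. Without the 7 tumours low in B cell genes or Myc 5 rose, Col4a1 (0.31), Col4a2 (0.29), Col6a3 (0.47), Sparc (0.31) and Col6a1 (0.23). Without tumour 2 alone the same 2 passed, and the slopes were 0.35 for Pdgfra (adjusted p = 0.229), 0.37 for Dcn (adjusted p = 0.351) and 0.11 for Col6a4 (adjusted p = 0.396). Without tumour 23, which had the lowest score, 10 members rose, among them Sparc at 0.32, Col6a3 at 0.43 and Pdgfrb at 0.25, while Dcn did not pass (0.46, adjusted p = 0.0516). Dcn also missed the threshold without tumour 6, 15, 17 or 27 (adjusted p between 0.0522 and 0.0597). Without tumour 8, Sparc (0.30) and Col18a1 (0.17) passed and Col11a2 fell by 0.21, without tumour 3 Sparc passed (0.28), and without tumour 6 Col10a1 fell by 0.09.

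Along the macrophage score (16 markers, between -0.95 in tumour 3 and 1.54 in tumour 6) 16 of 49 matrix genes rose and 0 fell (20 higher and 2 lower at an unadjusted p under 0.05), where 17.7% of all genes rose and 17.6% fell. Pdgfra rose by 0.67 ± 0.11 (adjusted p = 9e-06), Dcn by 0.61 ± 0.14 (adjusted p = 0.00051) and Lum by 0.49 ± 0.13 (adjusted p = 0.00262). Col6a3 rose by 0.41 ± 0.13, Col6a1 by 0.40 ± 0.07, Col6a2 by 0.32 ± 0.07, Fn1 by 0.40 ± 0.11 and Pdgfrb by 0.36 ± 0.07. Of the fibrillar chains Col5a2 was the 1 of 11 to rise, by 0.40 ± 0.13, and Col1a1 was not among them.

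The remaining members that rose with the macrophage score were Col23a1 (0.30), Sparc (0.27), Col7a1 (0.17), Col15a1 (0.14), Col16a1 (0.13), Col20a1 (0.10) and Col4a4 (0.09). With the mean of all its probe sets Col4a4 did not pass (0.07, limma adjusted p = 0.0829). Much of the expression profile moved with this score: all 12 G2/M markers fell, 6 of 11 pan B cell markers fell, all 9 adipocyte markers rose, and 9 of 13 fibroblast markers that are not members rose. Of these cells the fit with covariates held only the adipocytes, beside the endothelium and salivary gland scores. The part of the other cells in the slopes was not tested.

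The count along the macrophage score was 5 without tumours 2, 6 and 8 (Pdgfra, Lum, Fn1, Pdgfrb and Col6a1) and 3 without the 7 tumours low in B cell genes or Myc (Pdgfra, Dcn and Lum). Pdgfra and Lum passed in both, with slopes of 0.50 and 0.57 for Pdgfra and 0.38 and 0.52 for Lum. With each tumour left out in turn the count ran between 10, without tumour 6 or 8, and 18, without tumour 2. Without tumour 6 the members lost were Col6a3 (0.33, adjusted p = 0.0591), Col7a1, Col15a1, Col16a1, Col20a1 and Col4a4, of which Col4a4 had a slope of 0.02, and Col26a1 (-0.10) and Col2a1 (-0.09) fell. Without tumour 8, Col5a2 (0.34, adjusted p = 0.0508), Col7a1, Col15a1, Col16a1, Col20a1 and Col4a4 were lost, and without tumour 23, Col5a2 (0.31), Col6a3 (0.28), Col15a1, Col16a1 and Col20a1. Col23a1 had a slope of 0.16 without tumour 2 (adjusted p = 0.0415). The calls of Col4a4, Col15a1 and Col20a1 had adjusted p-values of 0.0497, 0.0422 and 0.0452 and were each lost without several other tumours, whereas Col1a2 (0.32, adjusted p = 0.0584) was gained without several. Col3a1 passed without tumour 1 (0.35, adjusted p = 0.0225), Col17a1 without tumour 2 or 32 and Col24a1 without tumour 2, and Col26a1 fell without tumour 5 (-0.09).

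Along the adipocyte score (9 markers, between -1.48 in tumour 18 and 3.53 in tumour 6) 7 of 49 matrix genes rose and 0 fell (13 higher and 0 lower at an unadjusted p under 0.05), where 12.6% of all genes rose and 8.5% fell. They were Col6a3 (0.42 ± 0.13), Col6a2 (0.34 ± 0.07), Col6a1 (0.32 ± 0.08), Col17a1 (0.23 ± 0.08), Col7a1 (0.19 ± 0.05), Col20a1 (0.12 ± 0.04) and Col4a4 (0.11 ± 0.04). With the mean of all its probe sets Col4a4 did not pass (0.06, limma adjusted p = 0.143). The 7 are 14.3% of the members, near the share of all genes. Collagen VI is known to be abundant in adipose tissue and muscle. Of 10 skeletal muscle markers 7 rose along this score, and the part of fat or muscle in the collagen VI slopes was not tested.

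These calls rested on a few tumours. Without tumours 2, 6 and 8, and without the 7 tumours low in B cell genes or Myc, 0 matrix genes rose along the adipocyte score in limma. Without tumour 6 alone 1 passed, Col6a2, and the slopes were 0.32 for Col6a3 (adjusted p = 0.165), 0.21 for Col6a1 (0.117), 0.12 for Col17a1 (0.423) and 0.07 for Col7a1 (0.474). Without tumour 8, Col6a3, Col7a1, Col20a1 and Col4a4 were lost, and without tumour 19 Col17a1 (0.20, adjusted p = 0.0724). Lum (0.37, adjusted p = 0.0515) passed without any 1 of several tumours and Dcn (0.39, adjusted p = 0.0666) without tumour 1 or 18. Without tumour 36, 9 members rose, Col15a1 among them.

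The score of 13 salivary gland markers split into 9 tumours with high values (3, 7, 8, 13, 15, 25, 37, 38 and 39) and 30 with low values. Along this score 0 of 49 matrix genes rose or fell in limma (5 higher and 0 lower at an unadjusted p under 0.05), where 0.814% of all genes rose and 0.0165% fell. The slopes of the 5 were between 0.07 for Col9a1 and Col13a1 and 0.14 for Col7a1. No member passed within the 30 tumours with low values either, in a fit added after the split was seen.

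**Figure D5:**
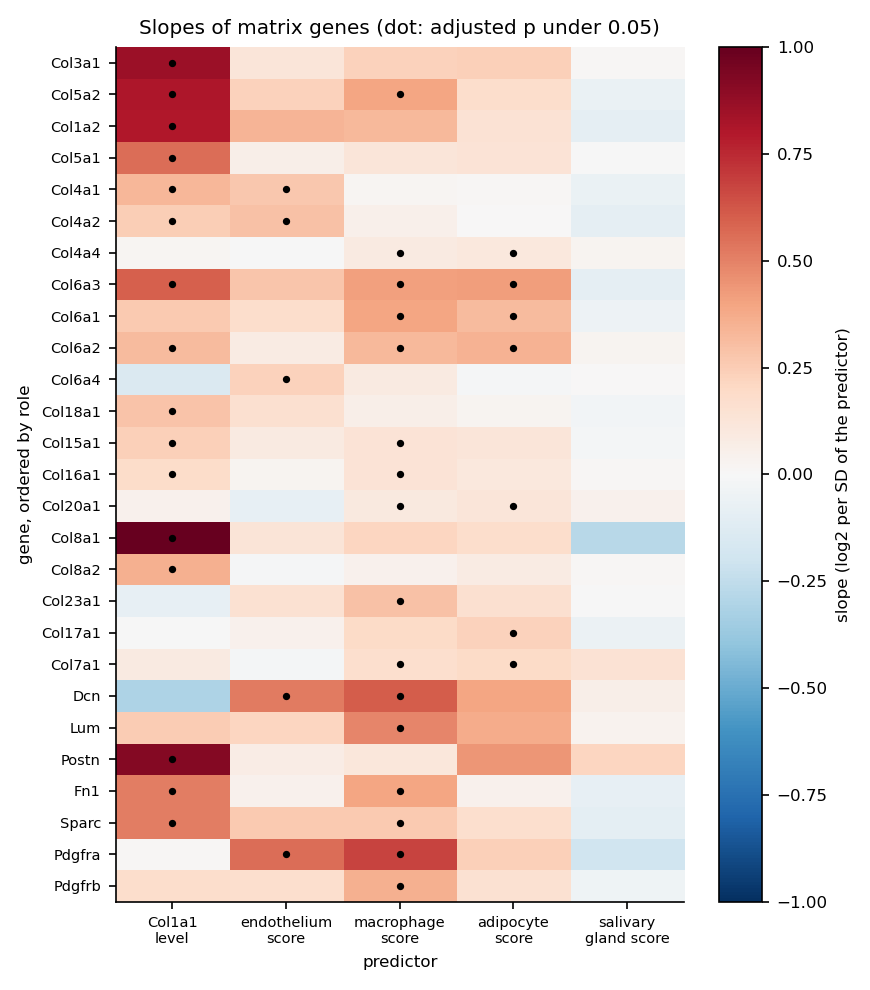
Slopes (colour, log2 per SD of the predictor, red for higher and blue for lower) of the 27 matrix genes called in at least 1 of 5 limma fits (y axis) along the Col1a1 level and 4 cell scores (x axis), with dots for an adjusted p under 0.05. Dots for Col3a1, Col1a2 and Col5a1 stand under Col1a1 alone, those of Col4a1 and Col4a2 under Col1a1 and endothelium, those of Dcn and Pdgfra under endothelium and macrophages, and no dot stands under the salivary gland score.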

How the data were processed

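The values the authors deposited are log2 levels for each probe set. Per the submitters' processing notes they were made with affy and RMA, which corrects background, quantile normalises arrays and summarises probes. Software versions and the size of the set normalised together are not stated. Quantile normalisation hides changes in total RNA, and differences in dim genes are compressed in array values of this kind. The values themselves showed the log2 scale, and 0 columns were left unused.

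Of 45101 probe sets, 34958 named 1 gene in the platform annotation, 932 several, and 9211 were not listed. A total of 34754 matched a gene by Entrez identifier (GRCm38.p6), and each of 18194 genes took its probe set with the highest mean. The members, marker lists, pathway lists, pairs and tests were chosen with earlier results of these data known. A score averages each marker's log2 level after its own mean is taken off, and no fit includes the markers of its score. All genes were fitted with limma 3.58.1 in R 4.3.3 (lmFit and eBayes with trend, 2-sided) on the predictor divided by its SD, at a Benjamini-Hochberg adjusted p of 0.05. Pairs had 2-sided permutation tests of 100000 draws. A gene counted as split where a mixture of 2 components (mclust 6.1.1) improved the BIC by more than 10 and the smaller cluster had 3 tumours or more, and r was then taken within the larger cluster. The BIC gain of the hybridisation controls was -5.60. RNA quality was read as the 3′ over 5′ log2 difference in actin and Gapdh control probe sets, which lay between -0.00078 and 0.395 and was a covariate in an alternative. Other alternatives were the mean of all probe sets, a filter on dim genes, fewer tumours, ranks, Col1a2 or Col3a1 as predictor and covariates for other cells.

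In simulated data with 200 of 18193 genes following Col1a1, slopes of 0.25, 0.5 and 1 were recovered in 65.7%, 89.6% and 98.5% of genes, with 7 false calls. The noise was drawn for each gene alone and the 200 genes were picked at random from all genes. These rates need not hold for the members, whose levels ran together and had a higher median SD. All members named in the opening, those with an SD of at least 0.5 and all called members are named, with the 4 steepest called genes of a list and, along Col1a1, the 6 most positive and 4 most negative of other genes. Of the cell lists, fibroblastic reticular cells, neutrophils, epithelium and erythroid cells had 0 called genes along Col1a1 (1 lower, 0, 0 and 1 higher at an unadjusted p under 0.05). Sequences come from RefSeq for GRCm38.p6. The number of arrays limits the precision. Figures were drawn with matplotlib 3.10.9.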

Additional observations from a re-analysis of the deposited data

How the results depend on the processing

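Along Col1a1 the count of matrix genes that rose stayed between 12 and 17 under the other settings, and with the other cell scores as covariates 2 fell. Along the endothelium score the rising count was 2 without tumours 2, 6 and 8, 2 without the 2 tumours farthest from the median and 2 with ranks, and with covariates 2 fell (Col10a1 and Col20a1). Along the macrophage score it was 5 without tumours 2, 6 and 8, 3 without the 7 tumours low in pan B cell genes or Myc, 8 without the 2 farthest, 8 with ranks and 6 with covariates. Without those 7 tumours the slopes turned to -0.0116 for Col15a1, -0.0278 for Col16a1, -0.00861 for Col20a1, -0.0412 for Col6a3 and -0.0021 for Col7a1. Along the adipocyte score it was 0 without tumours 2, 6 and 8, 0 without the 7, 0 without the 2 farthest, 2 with ranks and 0 with covariates. Slopes there turned to -0.00773 for Col4a4 and -0.0221 for Col7a1 without tumours 2, 6 and 8, to -0.0439 for Col17a1, -0.00265 for Col4a4 and -0.00034 for Col7a1 without the 7, and to -0.00825 for Col4a4 and -0.0299 for Col7a1 without the 2 farthest. Along Dcn, 2 fell with the mean of all probe sets, 2 rose and 0 fell among genes above the median level, 2 rose and 0 fell without tumours 2, 6 and 8, 0 fell without the 7, 2 rose and 0 fell without the 2 farthest, and 2 rose with ranks. With covariates 0 rose and 14 fell along Dcn, and the slopes turned to -0.29 for Col4a2, -0.35 for Col6a2 and -0.44 for Sparc. The filter to genes above the median level takes dim genes out of the fit, so calls of dim members are absent there. Among them were Col8a1, Col8a2, Col15a1 and Col18a1 along Col1a1, and Col23a1, Col6a4 and Col11a1 along Dcn. The cause of the other changes was not tested. Shares of all genes called under these settings are not given here. With each tumour left out in turn, an alternative chosen after seeing the data, the rising counts ran between 14 and 16 along Col1a1, 2 and 10 along the endothelium score, 10 and 18 along the macrophage score, 1 and 9 along the adipocyte score and 2 and 6 along Dcn, and stayed at 0 along the salivary gland score and Col27a1. Of the pairs, 21 to 25 passed under the alternatives, and 4 to 6 matrix genes had an SD of at least 1. No paired analysis was possible because all tumours form 1 group. The number of arrays and the dim signal of many minor collagens limit the precision.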

Other observations

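The fits along Dcn and along Col27a1 were added after the values above were seen, so they describe these tumours only. Along Dcn 4 of 48 matrix genes (8.33%) rose and 1 (2.08%) fell, where 10% of all genes rose and 11.8% fell. Neither share of the matrix genes exceeded that of all genes. Pdgfra rose by 0.75 ± 0.10 log2 per SD (39 tumours, limma adjusted p = 8e-06), Lum by 0.53 ± 0.12 (adjusted p = 0.0025), Col23a1 by 0.25 ± 0.08 (adjusted p = 0.0236) and Col6a4 by 0.21 ± 0.06 (adjusted p = 0.00851). Col11a1 fell by 0.19 (adjusted p = 0.0384). Without tumour 2, Col23a1 had a slope of 0.10 and Col6a4 of 0.10, and neither passed, whereas Pdgfra and Lum passed. Col11a1 did not pass without tumour 2, 11, 16, 23, 27 or 28. Without tumour 23, Col6a1 (0.24) and Pdgfrb (0.23) also rose. With the endothelium, macrophage, adipocyte and salivary gland scores as covariates 14 matrix genes fell along Dcn, among them Col1a1 with a slope of -0.94 (adjusted p = 0.0125). The share of all genes that fell with these covariates is not given here, so whether this count is particular to matrix genes is not stated.

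Of 13 fibroblast markers outside the members, 7 rose along Dcn, where 10% of all genes rose. Along Col1a1 1 of the 13 rose, where 0.467% of all genes rose. At an unadjusted p under 0.05 the limma fits had 9 higher along Dcn and 5 higher along Col1a1. The difference between the fits was not tested. Dpt, a fibroblast matrix protein, rose by 0.81 ± 0.12 along Dcn, Cxcl12, a stromal chemokine, by 0.72 ± 0.15 and Gsn, an actin-severing protein, by 0.71 ± 0.16. Of 3 reticular cell markers Cxcl13, a chemokine that draws B cells into follicles, rose by 1.34 ± 0.29 and Il33, a reticular cell cytokine, by 0.48 ± 0.15. All 12 G2/M markers fell along Dcn, with slopes between -0.49 for Cenpf and -0.37 for Aurka, as did 1 of 11 pan B cell markers, Vpreb3. Also along Dcn, 8 of 16 macrophage markers, 6 of 15 endothelium markers, 5 of 9 adipocyte markers and 4 of 8 T cell markers rose. The part of these cells was not tested. Tumours 1 and 2, highest for Dcn and Pdgfra, had G2/M scores of -1.09 and -2.75 and T cell scores of 1.29 and 3.09, against medians of 0.19 and -0.34 over all tumours.

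Along Col27a1, whose 6 high tumours form a cluster of their own, 0 of 48 matrix genes and 0% of all 18193 genes passed in limma (476 higher and 394 lower genes at an unadjusted p under 0.05). Postn had the lowest p of the members, with a slope of 0.41 ± 0.20 (adjusted p = 1.00).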
